A study of Mus musculus with 30 samples.

Results

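The interferon response genes described here are 35 genes known to be induced by interferon, taken as a named list, and a gene was counted as measured when a probe set carried its symbol and no other. Of the 35 genes, 34 had such a probe set, out of 30142 genes tested. Irf1 had 2 probe sets, Ifit3b was matched after its symbol had been updated, and Ifi44 was not analysed.

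RNA came from whole uteri of pre-pubertal female mice, 21 days old, hybridised to 30 Affymetrix arrays in 10 groups of 3. KO mice carry the Ex3aERKO genotype, a deletion in Esr1, the gene of estrogen receptor alpha (ERa), and were compared with WT mice. Mice of each genotype received an intraperitoneal injection of saline (vehicle, 100 ul), of 17β-estradiol (E2, 250 ng in saline) or, in PBS, 50 ug of IGF1, an insulin-like growth factor. Vehicle uteri were collected only at 24 h, E2 uteri at 2 h or 24 h, and IGF1 uteri at 2 h or, after 3 injections at 0, 8 and 16 h, at 24 h. A contrast of a 2 h group with vehicle therefore also holds the time since injection. That of an IGF1 24 h group with vehicle also holds the number of injections and the time since the last one. The number of injections also differs between 24 h and 2 h of IGF1. Contrasts of IGF1 with vehicle or E2 also hold the solvent. The labels do not say whether replicates were separate animals, and what the tests measure is the spread between samples, which may be technical. In whole tissue, fewer cells of a type and less RNA per cell cannot be told apart.

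Interferons are secreted proteins that bind receptors at the cell surface and activate Janus kinases. Type I interferons activate a factor that contains STAT2 and IRF9 and binds the interferon-stimulated response element (ISRE) of its target genes, whose products sense viral RNA, block translation, degrade RNA or tag proteins. Interferon epsilon, encoded by Ifne, is a type I interferon known to be made by the epithelium of the female reproductive tract and to depend on hormones there.

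The ISRE core was searched for as GAAA, any 2 bases and GAAA again, which reads TTTC, any 2 bases and TTTC on the other strand. Both strands were read and overlapping matches were counted, in RefSeq windows from 250 bases before to 50 after each gene's start (build GRCm38.p6). Of the 26 members in that table, 13 held a match (50.0%), against 1079 of all 27025 genes (3.99%). The members without an entry were Mx1, Mx2, Oas2, Usp18, Dhx58, Rtp4, Parp9, Parp14 and Zbp1. A full estrogen response element, GGTCA, any 3 bases and TGACC, was in 0 of the 26 members and in 20 of all genes (0.074%). Ifit2, Xaf1, Irf9, Irf7, Trim25 and Oasl2, which also appear in the results below, had an entry and held no ISRE core match. The following stretches, upstream of the start and on the strand of the gene, are examples from members that held a match. Capitals mark the ISRE core matches.
Oas1a, chr5:120907526-120907575 (minus strand): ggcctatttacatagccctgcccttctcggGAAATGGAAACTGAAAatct
Bst2, chr8:71537557-71537632 (minus strand): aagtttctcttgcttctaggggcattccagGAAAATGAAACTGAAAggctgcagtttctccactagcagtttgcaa
Isg15, chr4:156200845-156200926 (minus strand): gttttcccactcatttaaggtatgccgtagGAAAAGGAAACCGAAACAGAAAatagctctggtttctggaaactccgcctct
Stat2, chr10:128270248-128270315 (plus strand): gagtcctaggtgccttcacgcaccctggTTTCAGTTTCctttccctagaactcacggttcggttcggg
Ifit1, chr19:34640755-34640843 (plus strand): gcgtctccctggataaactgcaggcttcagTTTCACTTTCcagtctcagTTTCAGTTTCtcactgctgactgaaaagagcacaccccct
Ifit3, chr19:34583343-34583446 (plus strand): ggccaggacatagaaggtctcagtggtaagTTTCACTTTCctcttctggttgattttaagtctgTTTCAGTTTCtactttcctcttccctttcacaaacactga
Gbp2, chr3:142620574-142620643 (plus strand): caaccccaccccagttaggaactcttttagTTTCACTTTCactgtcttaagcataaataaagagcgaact
In Isg15, Oas1a and Bst2 the matches overlap, while Ifit1 and Ifit3 hold separate ones. The same 104 bases as in Ifit3 stand before Ifit3b (chr19:34607739-34607842, plus strand), identical at 104 positions. A match describes the letters and shows neither binding nor use.

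Levels are the deposited log2 signals, a change is a difference of group means (n = 3 each) ± its standard error, and a call means a limma p, adjusted by Benjamini-Hochberg over all genes of a comparison, under 0.05. Values are rounded to 2 decimals, with a trailing 0 dropped from whole numbers. Medians of the arrays over all 72688 deposited probe sets ran from 5.82 to 6.33. The level under which 95% of 1225 olfactory receptor genes lay, taken as a floor, ran from 5.69 to 6.57. Oas3 was at or under it on all 30 arrays, Mx1 in all but 2 groups on every array, and Oasl1 on every array of 6 groups. Esr1 was at 9.38 to 10.41 on KO arrays and 11.44 to 12.73 on WT arrays, and its probe set may lie outside the deleted part.

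Some arrays stood apart from their own group. On KO E2 2 h replicate 2 all 34 members were above both other arrays of the group, against 32.4% of all genes, with a median difference of 1.35 from their mean. The mean level over the members was 9.28 there, against 7.84 and 7.68 on the other arrays of the group. Gbp2, a guanylate-binding protein induced by interferon gamma, was at 14.91 there and at 9.51 and 8.98 on the others. The interferon gamma-induced chemokine gene Cxcl9 was at 14.70 there and at 7.05 and 7.83 on the others. The summed level of the 5 pan-leukocyte markers was 12.39 on this array and 10.23 and 10.41 on the others, and that of the 9 macrophage markers was 12.91 against 11.04 and 10.95. Their part in the results was not tested. The neutrophil genes S100a8 and S100a9 were at 13.73 and 14.66 on KO E2 2 h replicate 2. They were at 15.00 and 15.02 on KO IGF1 24 h replicate 2 and at 14.26 and 14.25 on WT IGF1 2 h replicate 2. On KO IGF1 24 h replicate 2, 27 of 34 members were above both other arrays, against 35.1% of all genes. On WT IGF1 2 h replicate 2, 2 of 34 members were above both other arrays, against 39.1% of all genes, and 22 were below both. The level of Xist, which coats the silenced X in female cells, was 10.16 on replicate 1 of WT vehicle and lay between 17.01 and 18.12 on the other arrays. On that vehicle array 6 of 34 members were above both other arrays, against 58.4% of all genes, and 26 were below both. The share of all genes below both was not counted for any array. KO E2 24 h replicate 2 had the highest median and floor (6.33 and 6.57), a summed level of 8 smooth muscle markers of 15.49, against 17.63 and 17.38 on the others of its group, and an epithelial sum of 13.62, against 15.07 and 15.31. For comparisons that include their group, counts without these arrays are given where they differ from those with them. All groups share an estimate of the spread, so these arrays also enter the other comparisons. Leaving out each of them alone was not tried there. On KO IGF1 2 h replicate 3, 22 of 34 members were above both other arrays (32.7% of all genes), with Gbp2 at 11.22, against 9 and 7.91. Such counts were also seen on other arrays, such as WT vehicle replicate 3 and WT IGF1 2 h replicate 3, with 25 of 34 members each (20.6% and 28.3% of all genes).

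**Figure D1:**
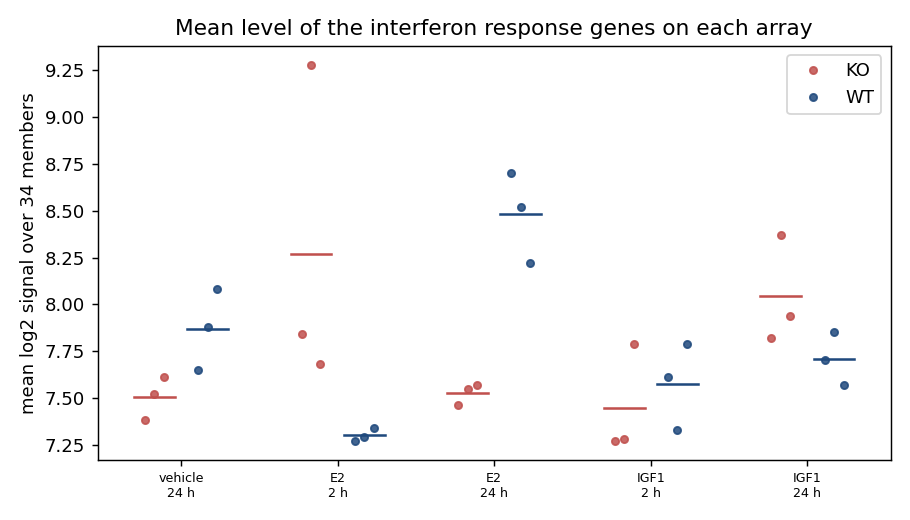
Mean log2 signal over the 34 measured members (vertical axis) on each of the 30 arrays, by treatment and time (horizontal axis), with KO in red left of WT in blue; points are arrays and lines are group means. KO E2 2 h replicate 2, at 9.28, is the highest array, and the 3 WT E2 24 h arrays, at 8.22 to 8.70, lie above the 3 WT E2 2 h arrays, at 7.27 to 7.34.

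The first question was what E2 did to these genes in the WT uterus after 2 h. Of the 34 members, 11 were lower and 1 was higher than in vehicle uteri, which is 35.3% of them beside 19% of all genes called (9.18% lower, 9.84% higher). The median change of the members was -0.44, against -0.09 over all genes. The members that fell furthest belong to the Ifit family, whose proteins bind viral RNA and block its translation. Ifit3b was at 6.05, 6.33 and 5.68 in WT uteri 2 h after E2, against 7.85, 8.35 and 8.54 in WT vehicle uteri. All 3 E2 arrays lay below all 3 vehicle arrays, a change of -2.23 ± 0.42 (4.68-fold lower, limma adjusted p = 0.000409). Ifit2 was at 6.49, 6.87 and 6.47 after E2, against 8.09, 8.98 and 8.81 with vehicle, again with no overlap, and fell by 2.02 on the log2 scale (± 0.36, adjusted p = 0.000179). Ifit3 was at 7.29, 7.52 and 6.51 after E2, against 8.43, 8.52 and 9.41 with vehicle (change -1.68 ± 0.42). Ifit3 and Ifit3b are close paralogues and may share probes, so their changes are not separate evidence. Ifit1, with a change of -0.88 ± 0.47, was not called (adjusted p = 0.221).

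Other members lower at 2 h in WT were Xaf1, a gene of apoptosis, at 8.91, 8.89 and 9.12 after E2 and 10.05, 10.45 and 10.53 with vehicle (change -1.37 ± 0.32). The cytoplasmic RNA sensor gene Ifih1 (-1.19 ± 0.20), the receptor-transporting protein gene Rtp4 (-1.12 ± 0.34), the OAS-like gene Oasl2 (-1.08 ± 0.36) and the ubiquitin ligase gene Dtx3l (-0.89 ± 0.29) were lower as well. The rest were the ubiquitin ligase gene Trim25 (-0.81), the antiviral gene Rsad2 (-0.67) and the RNA sensor gene Ddx58 (-0.62). Bst2, which encodes tetherin, a membrane protein that holds budding virus particles at the cell, went the other way. It was at 11.56, 11.39 and 11.76 after E2, against 9.80, 10.38 and 10.60 with vehicle, with no overlap (change 1.31 ± 0.45, adjusted p = 0.0418). The factors of the ISRE were not called at this time, with changes of 0.02 for Stat2, 0.15 for Irf9 and -0.04 for Irf7. Without WT vehicle replicate 1, 9 members were lower and 0 higher, so that the call of Bst2 was lost. Leaving out WT E2 2 h replicate 1 or replicate 3 left 6 members lower and 0 higher each, and centring each array on its median left 6 lower and 1 higher. Of 9 stromal markers 7 were lower at this time, with a median change of -1.79, and their part in the result was not tested.

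After 24 h of E2 the WT uterus showed another pattern. Of the 34 members, 12 were higher than with vehicle and 0 were lower, 35.3% of them beside 30.1% of all genes called (16.8% higher, 13.3% lower). The share called thus lay near that of all genes, while the median change was 0.56, against -0.10 over all genes. Among the factors, Stat2 was at 8.97, 8.89 and 8.68 after E2, against 6.77, 7.53 and 8.01 with vehicle. All E2 arrays were above all vehicle arrays, a change of 1.41 ± 0.38 (2.67-fold, adjusted p = 0.00654). Irf9, the DNA-binding partner of STAT2, was at 8.5, 8.43 and 8.17 after E2, against 6.90, 7.37 and 7.60 with vehicle, likewise without overlap (change 1.08 ± 0.21). Irf7, an amplifier of type I interferon production, was at 7.15, 7.17 and 6.71 after E2, against 6.33, 6.39 and 6.38 (change 0.65 ± 0.23, adjusted p = 0.0362). Irf1, a factor of the interferon gamma response, was at 7.44, 7.73 and 7.58 after E2 and 7.53, 7.42 and 7.47 with vehicle. Its groups overlapped, and its second probe set averaged 6.52 after E2 and 7.33 with vehicle, so the probe sets differ in direction.

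The 2'-5' oligoadenylate synthetases make the messenger that activates RNase L. Oas1a was at 10.90, 10.28 and 10.22 in WT uteri 24 h after E2, against 8.56, 8.14 and 8.61 with vehicle (change 2.03 ± 0.36, 4.08-fold, adjusted p = 0.000136). Oas2 was at 8.99, 8.46 and 7.86 after E2 and 6.24, 6.53 and 6.64 with vehicle (change 1.97 ± 0.41, 3.91-fold). Neither gene's groups overlapped. Oasl2 (1.07 ± 0.36) was higher too, and Oasl1, which was at the floor with vehicle, was at least 1.27-fold higher (log2 change 0.63, adjusted p = 0.00018). Oas1a has close relatives that may share probes with it.

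Bst2 had the largest change of the members at 24 h, at 13.10, 12.84 and 12.87 in WT uteri after E2, against 9.80, 10.38 and 10.60 with vehicle. The change was 2.68 ± 0.45 (6.4-fold, adjusted p = 6.46e-05), with no overlap. Rtp4 was at 10.43, 10.18 and 9.75 after E2, against 8.19, 8.41 and 8.86 with vehicle (change 1.64 ± 0.34). Of the RNA sensors and their ligase, Trim25 (0.98 ± 0.21), Ddx58 (0.81 ± 0.22) and Dhx58 (0.74 ± 0.16) were called higher and Ifih1 (-0.09) was not. Isg15, the ubiquitin-like modifier, was at 10.70, 10 and 9.68 after E2 and 9.21, 9.37 and 9.69 with vehicle, overlapping and not called (0.71 ± 0.31, adjusted p = 0.0847). Usp18, which removes ISG15 from proteins and restrains the type I receptor, was at 8.24, 8.37 and 7.65 after E2 and 7.53, 8.03 and 8.06 with vehicle. Its groups overlapped (change 0.21).

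The Ifit genes and Gbp2 were not among those higher at 24 h. Ifit2 was at 8.16, 7.88 and 7.95 in WT uteri 24 h after E2, against 8.09, 8.98 and 8.81 with vehicle (change -0.63 ± 0.36, adjusted p = 0.185), with overlap. Ifit3b was at 8.74, 8.89 and 7.62 after E2 and 7.85, 8.35 and 8.54 with vehicle, with overlap (change 0.17). Without WT vehicle replicate 1, 9 of 34 members were called higher, and likewise 9 without WT E2 24 h replicate 1. Stat2, Irf7 and Oasl2 lost their calls without that vehicle array. Of 11 epithelial markers 10 were higher at this time, with summed levels of 16.4 to 16.6 after E2 against 13.24 to 14.25 with vehicle. The 5 leukocyte markers summed to 10.14 to 10.22 after E2 and 10.03 to 10.59 with vehicle, with 1 called higher and 0 lower. The sum of 9 macrophage markers was 11.76 to 12.16 against 11.32 to 11.65 (1 higher, 0 lower). That of 7 neutrophil markers was 13.44 to 13.93 against 9.37 to 10 (2 higher, 0 lower). Nearly all of that sum after E2 was Ltf, at 13.33, 13.90 and 13.76. Over the 7 markers 3 changes were above 0 and 4 below, with a median of -0.05. Csf3r and Mmp8 were at the floor in both groups, so the sum mainly follows Ltf. Of 6 NK cell markers 2 were lower, and of 6 conventional dendritic cell markers 3 were lower. Of 5 plasmacytoid dendritic cell markers 3 were lower, with 0 higher in any of these lists. Gzma, Gzmb and Prf1 (NK) were at the floor in both groups, as were Flt3 and Xcr1 (conventional) and Pacsin1 (plasmacytoid). The part of any of these cell types in the result was not tested.

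**Figure D2:**
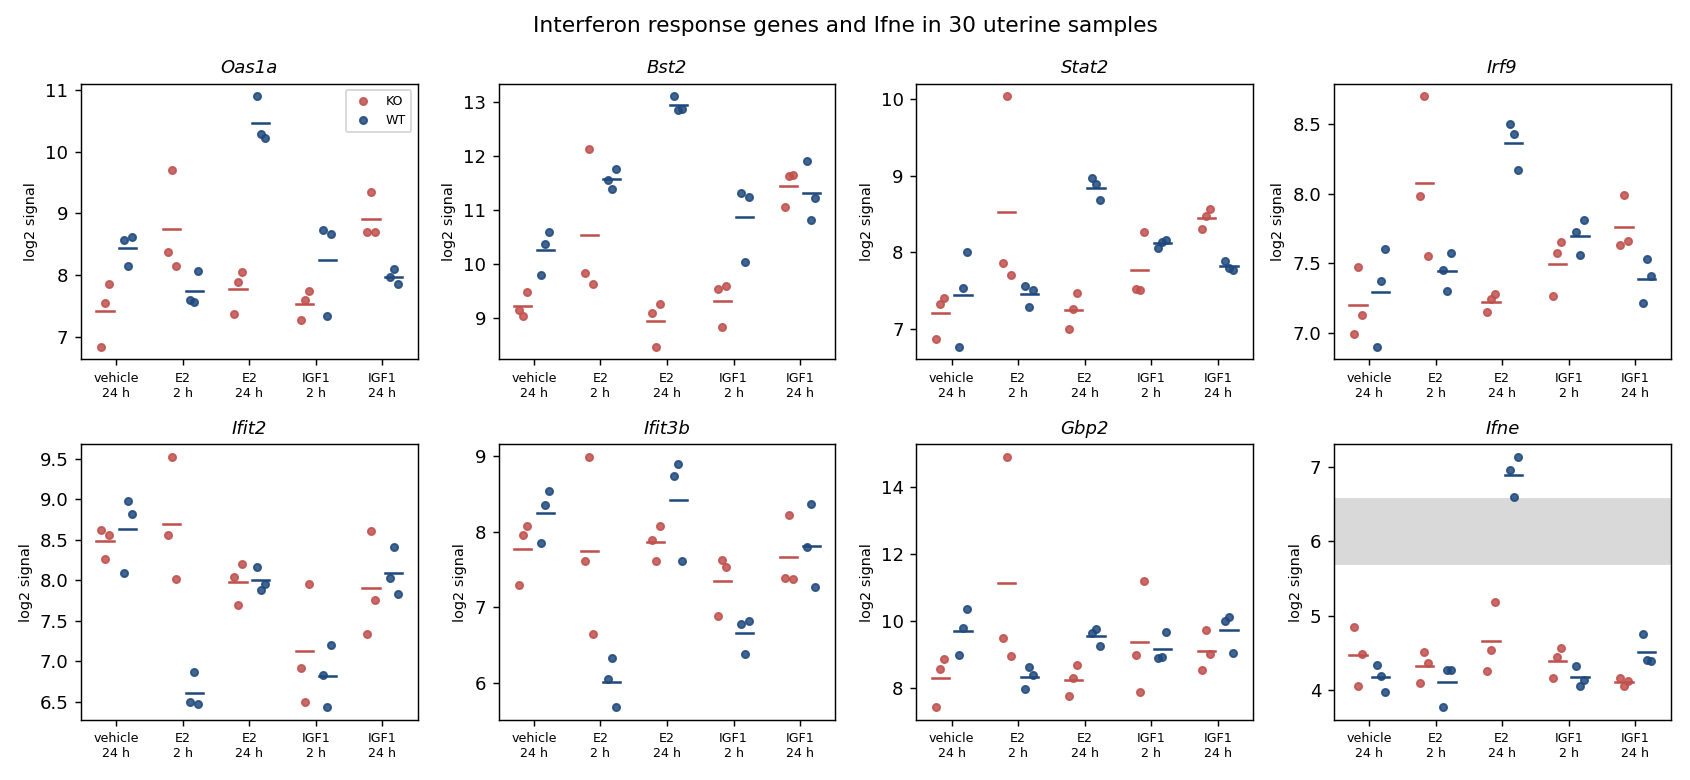
Log2 signal (vertical axis) of 7 interferon response genes and of Ifne on each array by treatment and time (horizontal axis), KO in red left of WT in blue; points are arrays, lines are group means, and the grey band in the Ifne panel spans the floors of the arrays, 5.69 to 6.57. Oas1a, Bst2, Stat2, Irf9 and Ifne are high in WT uteri 24 h after E2, Ifit2 and Ifit3b are low in WT uteri 2 h after E2, and 1 KO E2 2 h array is the highest of its group for all 8 genes, with Ifne under the floor there.

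The contrast of the E2 times in WT avoids the vehicle arrays. At 24 h, 25 of 34 members were higher than at 2 h and 0 were lower (73.5% of the members, beside 27.4% of all genes called and 17% called higher). All 34 changes were above 0, with a median of 1.08 against -0.01 over all genes. Rtp4 was at 10.43, 10.18 and 9.75 at 24 h and 7.21, 7.58 and 7.29 at 2 h, a change of 2.76 ± 0.34 (6.78-fold, adjusted p = 8.74e-07). Oas1a was at 10.90, 10.28 and 10.22 at 24 h and 7.59, 7.56 and 8.07 at 2 h (change 2.73 ± 0.36). Neither gene's groups overlapped. Ifit3b was 5.27-fold higher at 24 h (2.40 ± 0.42), Oas2 4.63-fold (2.21 ± 0.41), Oasl2 4.43-fold (2.15 ± 0.36) and Trim25 3.47-fold (1.79 ± 0.21). Oas3, with the smallest called change (0.36), was at the floor in both groups. With each of the 6 arrays left out in turn, 19 to 23 members were called. All 11 epithelial markers were higher at 24 h than at 2 h, with sums of 16.4 to 16.6 at 24 h and 13.48 to 14.09 at 2 h, as were 8 of 9 stromal markers (median 2.19), and their part in the result was not tested.

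**Figure D3:**
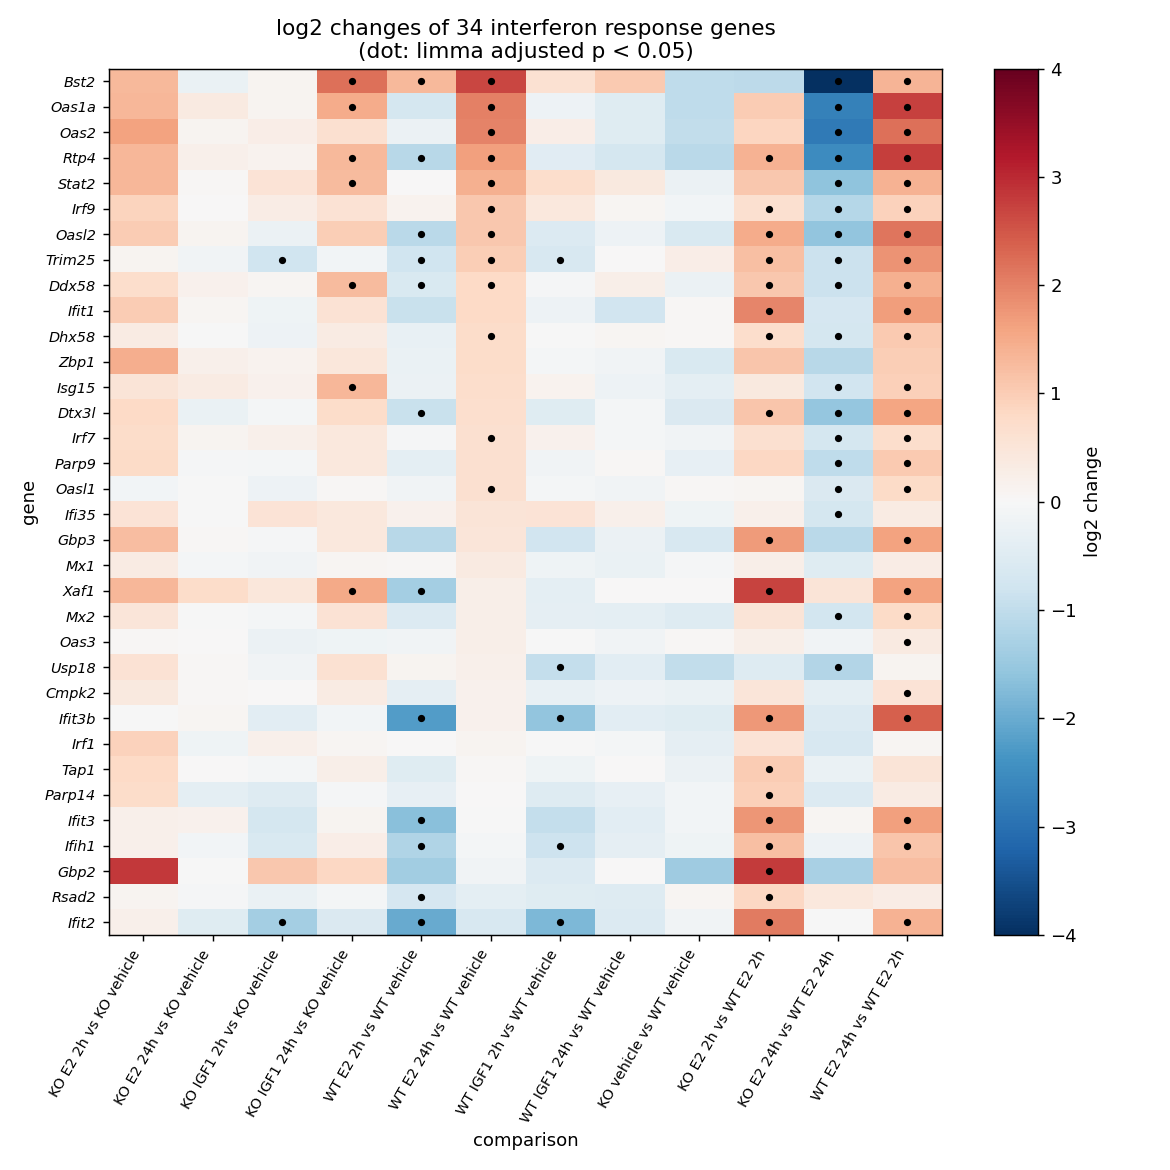
Log2 changes of the 34 members (vertical axis, ordered by the change of WT E2 24 h against vehicle) in 12 comparisons (horizontal axis); red is higher and blue lower in the group named first, and a dot marks limma adjusted p < 0.05. In the last column, WT E2 24 h against 2 h, 25 members carry a dot and all 34 changes are above 0, while the column of KO E2 24 h against KO vehicle carries none.

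The next question was whether KO uteri shared these changes. At 24 h after E2, 0 of 34 members were called in KO uteri against KO vehicle, as were 0% of all genes (limma), and 1 member, Xaf1, had an unadjusted p under 0.05. The median change was 0.02, against 0.08 over all genes. Directly compared at 24 h after E2, 18 members were lower in KO than in WT uteri and 0 were higher, 52.9% of them beside 47% of all genes called (19.3% lower, 27.7% higher). The median was -0.72, against 0.18 over all genes. Without KO E2 24 h replicate 2 the count was 17, and it stayed at 0 for KO E2 24 h against KO vehicle. This contrast and that of WT E2 24 h with vehicle share the WT E2 24 h arrays. Bst2 was at 9.09, 8.48 and 9.27 in KO and 13.10, 12.84 and 12.87 in WT uteri, 15.9-fold lower in KO (-3.99 ± 0.45, adjusted p = 2.31e-07). Oas1a was at 7.36, 7.89 and 8.05 in KO and 10.90, 10.28 and 10.22 in WT (-2.70 ± 0.36), and Rtp4 at 7.26, 7.96 and 7.59 in KO and 10.43, 10.18 and 9.75 in WT (-2.51 ± 0.34). Oas2, at 5.71, 5.63 and 5.47 in KO, was at the floor there, and was at least 4.42-fold lower than in WT, where it was at 8.99, 8.46 and 7.86 (log2 change -2.83, adjusted p = 8.5e-06). None of these groups overlapped.

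Of the factors, Stat2 was at 7, 7.26 and 7.47 in KO and 8.97, 8.89 and 8.68 in WT uteri (-1.61 ± 0.38), and Irf9 at 7.15, 7.24 and 7.28 in KO and 8.5, 8.43 and 8.17 in WT (-1.14 ± 0.21). Irf7 was lower in KO by a smaller amount, at 6.22, 6.35 and 6.38 against 7.15, 7.17 and 6.71 in WT (-0.69 ± 0.23). All 3 factors were without overlap. Usp18 was at 6.68, 7.23 and 6.88 in KO and 8.24, 8.37 and 7.65 in WT (-1.16 ± 0.29). Isg15 was at 9.47, 9.92 and 8.71 in KO and 10.70, 10 and 9.68 in WT, called although the groups overlapped (-0.76 ± 0.31, adjusted p = 0.045). Oasl2 (-1.59 ± 0.36), Dtx3l (-1.54 ± 0.29) and Parp9 (-1.03 ± 0.30), the partner of DTX3L, were also lower, while the Ifit genes and Gbp2 were not called.

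Tested as a difference of changes, the response to 24 h of E2 against vehicle was smaller in KO than in WT for 8 of 34 members and larger for 0 (23.5%, beside 22.1% of all genes called, 12.2% lower and 9.96% higher). They were led by Bst2 (-2.96 ± 0.63), Oas2 (-1.85 ± 0.58), Oas1a (-1.68 ± 0.51), Rtp4 (-1.45 ± 0.48), Trim25 (-1.13 ± 0.29) and Irf9 (-1.05 ± 0.30). Oas2 was at the floor on every array of both KO groups, so its KO change lies between background values and its size is not a measured one. The count was 5 without WT vehicle replicate 1 (14.7% of the members, beside 16.7% of all genes called) and 4 without WT E2 24 h replicate 1. The share of members called was thus near that of all genes, or under it. Between vehicle uteri 0 members differed by genotype in limma (2.92% of all genes called, 1.61% higher and 1.3% lower in KO). With an unadjusted limma p under 0.05 there were 6, a number that cannot be set against all genes, whose share at that threshold was not counted. These 6, all lower in KO, were Rtp4 (-1.07 ± 0.34), Bst2 (-1.03), Oas1a (-1.02), Usp18 (-1), Mx2 (-0.51) and Oas2, which was at the floor on all KO arrays and at least 1.3-fold lower there. Without WT vehicle replicate 1, Usp18 was called, lower in KO by a log2 change of -1.17 ± 0.32 (adjusted p = 0.0486). The 11 epithelial markers summed to 13.62 to 15.31 in KO uteri 24 h after E2 and 16.4 to 16.6 in WT uteri, and 7 of them were lower in KO, as were 6 of 9 stromal markers, and their part in the result was not tested.

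**Figure D4:**
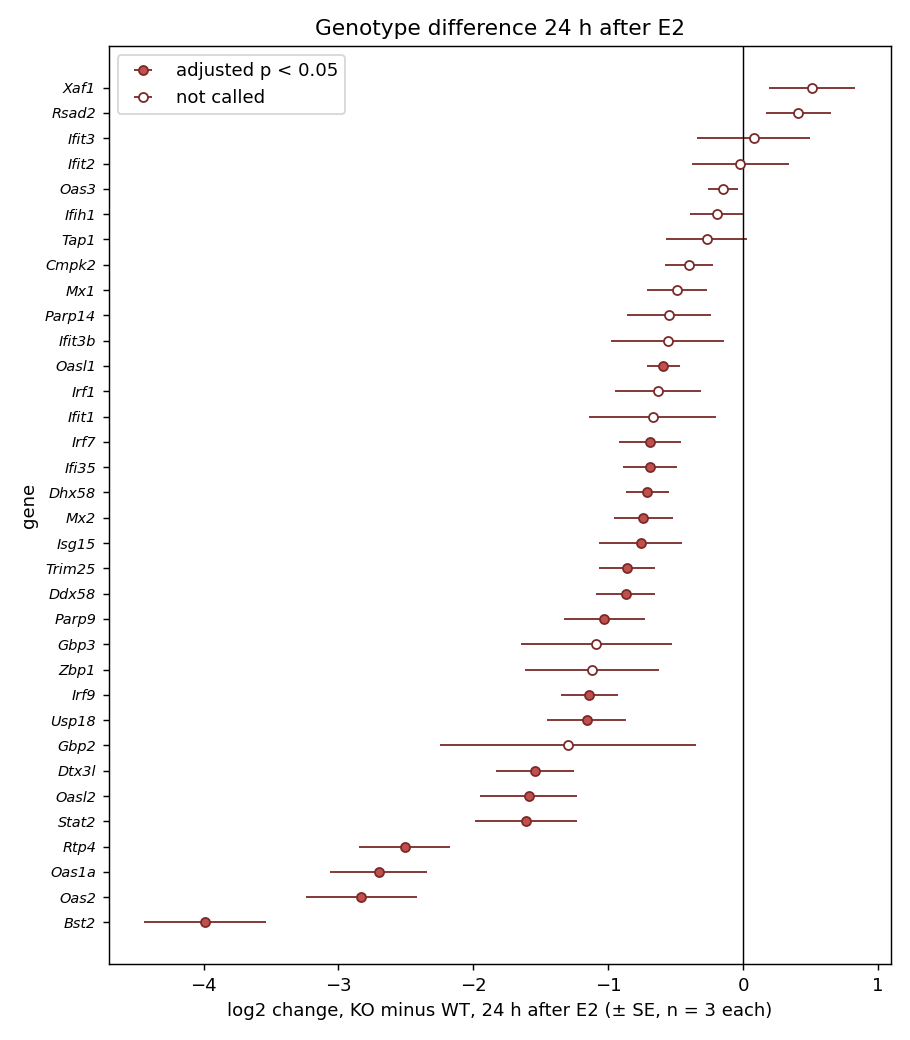
Log2 change, KO minus WT, 24 h after E2 (horizontal axis) for the 34 members (vertical axis); points are differences of group means of 3 arrays, bars are standard errors, and filled points passed limma adjusted p < 0.05. The 18 filled points all lie below 0, with Bst2 furthest at -3.99.

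At 2 h after E2 the order of the genotypes was the other way. Of 34 members, 18 were higher in KO than in WT uteri and 0 were lower (52.9%, beside 17.9% of all genes called, 9.2% higher and 8.67% lower), with a median of 0.97 against -0.01 over all genes. Without KO E2 2 h replicate 2, 9 members were higher and 1 was lower (15% of all genes called), with a median of 0.44. Xaf1 was at 10.84, 12.38 and 11.81 in KO and 8.91, 8.89 and 9.12 in WT (2.71 ± 0.32, adjusted p = 1.28e-06, and 2.35 ± 0.33 without replicate 2). Ifit2 was at 8.55, 9.52 and 8.01 in KO and 6.49, 6.87 and 6.47 in WT (2.08 ± 0.36, and 1.67 ± 0.36 without it). Gbp2 was at 9.51, 14.91 and 8.98 in KO and 7.99, 8.63 and 8.39 in WT (2.79 ± 0.95), and was not called without replicate 2. Ifit1 was at 8.81, 10.70 and 8.18 in KO and 7.30, 7.55 and 7 in WT (1.95 ± 0.47, and 1.21 ± 0.41 without it). None of these 4 genes had overlapping groups.

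Ifit3 (1.77 ± 0.42), Ifit3b (1.73 ± 0.42), Gbp3 (1.70 ± 0.56) and Oasl2 (1.48 ± 0.36) followed in size, and Ifit3b and Gbp3 were not called without the array. Ifih1 (0.93 ± 0.19) and Ddx58 (0.74 ± 0.19), the RNA sensor genes, and Trim25 (1.11 ± 0.23) were called higher in KO without it. So was Dhx58, which was at the floor on all 3 WT arrays and, with all KO arrays, at least 1.34-fold higher in KO. Without it Bst2 was lower in KO (-1.84 ± 0.35, adjusted p = 0.000544). With it, Bst2 was at 9.84, 12.13 and 9.63 in KO and 11.56, 11.39 and 11.76 in WT, overlapping and not called. Epithelial markers (8 of 11) and stromal markers (7 of 9) were higher in KO at this time, and their part was not tested.

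Against KO vehicle, 0 of 34 members were called by limma in KO uteri 2 h after E2 (0.365% of all genes called, 0.259% higher and 0.106% lower). With an unadjusted limma p under 0.05 there were 23 members. The share of all genes at that threshold was not counted, so the 23 cannot be set against it, and the group holds the high array. The median change was 0.74, and 0.27 without replicate 2, against -0.06 over all genes. Without replicate 3 of that group, which leaves the high array as 1 of 2, 9 members were called, and without replicate 1, 1 was. The change at 2 h differed between genotypes for 10 members, all with the larger value in KO (8% of all genes called, 3.61% higher and 4.39% lower), led by Xaf1 (2.69 ± 0.46), Rtp4 (2.46 ± 0.48), Ifit2 (2.23 ± 0.50), Ifit3b (2.20 ± 0.60), Oasl2 (2.10 ± 0.50) and Oas1a (2.02 ± 0.51). Without replicate 2 the count was 8 (6.62% of all genes called), among them Xaf1 (2.34 ± 0.44), Rtp4 (1.98 ± 0.42), Ifit2 (1.82 ± 0.48), Oas1a (1.54 ± 0.46) and Oasl2 (1.51 ± 0.40). The count was 23 without replicate 3 and 12 without WT vehicle replicate 1 (8.25% of all genes called without that vehicle array). Between 24 h and 2 h of E2 in KO, 8 members were lower at 24 h (9.42% of all genes called, 3.34% lower and 6.08% higher). That count was 0 without the E2 2 h replicate 2, where the share of all genes called fell as well, to 1.01% (0.534% lower). It was 0 without the E2 24 h replicate 2, 16 without the E2 2 h replicate 3, and 5 without replicate 1 of either group.

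IGF1, a growth factor that acts through its own tyrosine kinase receptor and is made in the uterus in response to E2, was the other treatment. At 2 h in WT, 5 of 34 members were lower than with vehicle and 0 were higher (17.2% of all genes called, 7.64% lower and 9.54% higher), with a median of -0.20 against -0.08 over all genes. Ifit2 was at 6.83, 6.43 and 7.20 after IGF1, against 8.09, 8.98 and 8.81 with vehicle (-1.81 ± 0.36), and Ifit3b at 6.78, 6.38 and 6.82 against 7.85, 8.35 and 8.54 (-1.59 ± 0.42). Usp18 was at 7.08, 6.45 and 7.20 after IGF1 and 7.53, 8.03 and 8.06 with vehicle (-0.96 ± 0.29). No arrays of these groups overlapped. Ifih1, at 8.04, 7.53 and 7.85 after IGF1 and 8.53, 8.61 and 8.75 with vehicle (-0.83 ± 0.20), and Trim25 (-0.63 ± 0.21) were the others, likewise without overlap, and the count was 3 without WT IGF1 2 h replicate 2, 3 without WT vehicle replicate 2 and 5 without WT vehicle replicate 1.

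In KO uteri at 2 h, 2 members were lower after IGF1 than with vehicle (7.13% of all genes called, 2.95% lower and 4.19% higher). Ifit2 was at 6.92, 6.50 and 7.95 after IGF1, against 8.62, 8.26 and 8.55 with vehicle (-1.36 ± 0.36), and Trim25 at 10.16, 10.22 and 11.17 against 11.23, 11.47 and 11.21 (-0.79 ± 0.21). Neither gene's groups overlapped. Leaving out single arrays of the compared groups gave 0 to 4 calls: 0 without IGF1 replicate 1 or 2, 4 without IGF1 replicate 3, and 1 without any 1 of the vehicle arrays. The change at 2 h of IGF1 did not pass the test of a difference between genotypes for any member (0.0133% of all genes called, limma). At 2 h in WT, E2 and IGF1 differed for 1 member (5.57% of all genes called). Usp18 was at 8.18, 7.30 and 8.45 after E2 and 7.08, 6.45 and 7.20 after IGF1, without overlap (1.06 ± 0.29, adjusted p = 0.0257), a call lost without WT E2 2 h replicate 1 or 3 or WT IGF1 2 h replicate 2. In KO 4 members, Ifit2 (1.57), Parp14 (1.28), Trim25 (0.89) and Ifih1 (0.79), were higher with E2 than with IGF1 (3.04% of all genes called). That count was 0 without KO E2 2 h replicate 2 (1.24% of all genes called) and 0 without KO IGF1 2 h replicate 1 or 2. It was 11 without KO E2 2 h replicate 3 or KO IGF1 2 h replicate 3.

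At 24 h of IGF1, members passed the test against vehicle in KO and not in WT. In KO, 7 of 34 members were higher than with vehicle and 0 were lower (20.6%, beside 13.6% of all genes called, 9.28% higher and 4.35% lower), with a median of 0.42 against -0.04 over all genes. Bst2 was at 11.06, 11.62 and 11.65 after IGF1, against 9.16, 9.05 and 9.48 with vehicle (2.21 ± 0.45, 4.63-fold, adjusted p = 0.0016). Xaf1 was at 11.85, 11.34 and 12.45 after IGF1 and 10.23, 10.50 and 10.32 with vehicle (1.53 ± 0.32). Oas1a was at 8.70, 9.34 and 8.69 after IGF1 and 6.84, 7.55 and 7.86 with vehicle (1.49 ± 0.36). All 3 genes were without overlap between the groups.

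Isg15 was at 9.90, 10.77 and 10.45 in KO uteri 24 h after IGF1, against 9.35, 8.86 and 8.88 with vehicle (1.34 ± 0.31), and Stat2 at 8.31, 8.47 and 8.57 against 6.87, 7.33 and 7.41 (1.25 ± 0.38). Rtp4 (1.29 ± 0.34) and Ddx58 (1.25 ± 0.22) were the other members. Without KO IGF1 24 h replicate 2, 5 were called: Bst2 (2.12 ± 0.51), Xaf1 (1.80 ± 0.35), Oas1a (1.28 ± 0.40), Ddx58 (1.25 ± 0.25) and Isg15 (1.14 ± 0.34). Of 9 stromal markers 6 were higher and 1 was lower at this time in KO, and 3 of 11 epithelial markers were higher, and their part was not tested. In WT at 24 h of IGF1, 0 members were called against vehicle (4.28% of all genes called, 3.32% higher and 0.962% lower, limma), and 3 had an unadjusted p under 0.05. Bst2 was at 11.90, 10.82 and 11.22 in those WT uteri and 9.80, 10.38 and 10.60 in WT vehicle uteri, with no overlap (1.05 ± 0.45, adjusted p = 0.203). The change with IGF1 at 24 h did not pass the test of a difference between genotypes for any member (0.00664% of all genes called, limma), and 0 members passed without KO IGF1 24 h replicate 2 or WT vehicle replicate 1, so the genotypes are not shown to differ.

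Compared at 24 h of IGF1, 2 members were higher in KO than in WT (2.86% of all genes called, 1.39% higher and 1.47% lower), Xaf1 (1.55 ± 0.32) and Isg15 (1.14 ± 0.31). Xaf1 was at 11.85, 11.34 and 12.45 in KO and 10.47, 10.51 and 10.03 in WT. Isg15 was at 9.90, 10.77 and 10.45 in KO and 9.27, 9.32 and 9.10 in WT. Both were without overlap. The count was 1 without KO IGF1 24 h replicate 2 or any 1 of the WT arrays, and 0 without KO IGF1 24 h replicate 3. At 2 h of IGF1, 0 members differed by genotype (1.95% of all genes called, 1.03% higher and 0.922% lower in KO, limma), and 1 did without WT IGF1 2 h replicate 2. Between 24 h and 2 h of IGF1, 10 members were higher at 24 h in KO (8.98% of all genes called) and 2, Ifit2 (1.27) and Trim25 (0.62), were higher at 24 h in WT (14.5% of all genes called). In KO the largest were Bst2 (2.12 ± 0.45) and Oas1a (1.38 ± 0.36), and the count ran from 3 to 12 with single arrays left out: 3 and 5 without IGF1 2 h replicates 1 and 2, and 6, 4 and 6 without IGF1 24 h replicates 1, 2 and 3. In WT it ran from 0 to 2: 0 without IGF1 2 h replicate 2 or IGF1 24 h replicate 2, and 1 without IGF1 2 h replicate 1 or 3 or IGF1 24 h replicate 1.

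Genes around the members were followed through 4 further lists. Of 26 measured ligands, receptors and signalling genes, 4 were higher and 2 lower in WT uteri 24 h after E2 than with vehicle (23.1% of the list, beside 30.1% of all genes called; median 0.06). The largest change was that of Ifne, at 6.96, 6.59 and 7.13 after E2 and 4.34, 4.19 and 3.98 with vehicle. All 3 E2 arrays were above all others of the series, and every array of the 9 other groups lay between 3.77 and 5.18, under the floor. The level after E2 was therefore at least 1.71-fold that with vehicle (log2 change 2.72 ± 0.21, adjusted p = 1.65e-09). In KO uteri 24 h after E2 Ifne was at 4.26, 4.54 and 5.18, at least 1.52-fold lower than in WT (log2 change -2.23, adjusted p = 2.14e-08). Ifnb1 and Ifng, the genes of interferons beta and gamma, were under the floor on every array, at 4.26 to 5.17 and 3.67 to 4.91.

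The receptor genes Ifnar1 and Ifnar2, whose products bind type I interferons, were lower in WT uteri 2 h after E2 than with vehicle. Ifnar1 was at 9.16, 9.23 and 9.40 after E2, against 9.71, 9.88 and 10.07 with vehicle (-0.62 ± 0.14), and Ifnar2 at 11.06, 11.11 and 11.15 against 11.95, 11.82 and 11.85 (-0.77 ± 0.25). Both were without overlap, and at 24 h neither was called (0.06 and 0.08). Ifngr2, a receptor chain for interferon gamma, was higher at 24 h of E2 (1.83 ± 0.23), as was the kinase gene Jak2 (1.03 ± 0.20), whereas Jak1 (0.26) and Tyk2 (0.16) were not called. Among the 26 genes at 2 h of E2, 5 were higher and 6 lower (42.3%, beside 19% of all genes), led by Stat3 (1.47 ± 0.19) and Jak2 (1.27 ± 0.20).

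Of 17 measured sensor genes, 7 were higher and 0 lower in WT uteri 24 h after E2 than with vehicle (41.2%, beside 30.1% of all genes). Sting1, the adaptor that responds to cytoplasmic DNA, was at 10.96, 10.66 and 10.78 after E2, against 7.25, 7.84 and 8.09 with vehicle. It was 8.42-fold higher without overlap (3.07 ± 0.43, adjusted p = 7.35e-06). Eif2ak2, the RNA-activated kinase that blocks translation, was at 11.16, 11.19 and 11.04 after E2 and 9.18, 9.70 and 9.64 with vehicle (1.62 ± 0.20). Tlr3, a receptor for double-stranded RNA, was higher by 0.97 ± 0.23 at 24 h and lower at 2 h (-1.15 ± 0.23). At 2 h, 4 sensor genes were higher and 3 lower (41.2%, beside 19% of all genes).

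Of 49 other interferon-induced genes, 15 were higher and 1 lower at 24 h of E2 in WT (32.7%, beside 30.1% of all genes; median 0.23), such as Ifi27l2a (1.74 ± 0.61), Epsti1 (1.72 ± 0.26) and Lgals3bp (1.70 ± 0.33). At 2 h, 2 were higher and 11 lower (26.5%, beside 19% of all genes; median -0.47), such as Gbp7 (-1.77 ± 0.53) and Sp100 (-1.37 ± 0.23). Of 15 antigen presentation genes, 5 were higher and 0 lower at 24 h (33.3%, beside 30.1% of all genes). The largest were Calr (2.68 ± 0.29) and Pdia3 (2.30 ± 0.26), chaperones of the endoplasmic reticulum that also serve proteins other than MHC class I, and Psmb10 (1.32 ± 0.42), a subunit of the immunoproteasome. In KO against WT uteri 24 h after E2, 6 signalling genes were lower and 3 higher, 7 sensor genes lower and 2 higher, 21 other induced genes lower and 4 higher, and 8 antigen presentation genes lower and 1 higher. The shares called were 34.6%, 52.9%, 51% and 60% of these lists in that order, beside 47% of all genes. Sting1 (-3.15 ± 0.43), Calr (-3.37 ± 0.29) and Eif2ak2 (-1.76 ± 0.20) were among those lower in KO, and the receptor gene Tlr4 (1.21 ± 0.23) among those higher.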

How the data were processed

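Per the labels' protocols, 300 ng of total RNA was prepared for the arrays with the WT Plus kit. The authors deposited log2 values for 72688 probe sets, which were used unchanged; the sources used here do not name the software, background correction, normalization or summarization, so their effect cannot be judged. An annotation listed 32750 probe sets, 30604 of them with 1 symbol and 2146 with several; 39938 were not listed. After 827 symbol updates through Entrez, 30142 genes were tested, with the probe set of highest mean used for 355 genes that had several.

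Means of the 10 groups were fitted in 1 model over 30 arrays with limma 3.58.1 in R 4.3.3 (lmFit and eBayes, 20 residual and 3.66 prior degrees of freedom; data.table, version 1.17.8), with Benjamini-Hochberg adjustment within each of 23 comparisons and calls at adjusted p < 0.05. Limma assumes normal errors. Counts of members with an unadjusted p under 0.05 were not set beside the share of all genes at that threshold. Other tables and figures were made with Python 3.11.15, pandas 2.3.3 and matplotlib 3.10.9. A fold is given as "at least" where every array of the dimmer group lay at its floor, the 95th percentile of olfactory receptor genes. Marker sums are log2 of summed linear signals. The number of arrays limits precision.

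Named were called members, up to 8 a direction (6 for interactions and other contrasts), with values by array for the 4 largest and for Irf7, Irf9, Stat2, Irf1, Isg15, Usp18, Ifit2 and Ifit3b; up to 3 called genes a further list; and Ifne, Ifnar1, Ifnar2, Jak1 and Tyk2. Other genes were named after their values were seen. Members and lists were chosen with earlier results of these data known. Data were simulated for WT E2 2 h against vehicle over 30142 genes, with normal noise equally wide in all groups. Changes of log2 1 and of log2 2 were given to 100 genes each. Of these, 68% of log2 1 and 97% of log2 2 changes were recovered, with 5 false calls. In the data 19% of genes were called in that contrast and some arrays stood apart, so these figures describe the simulated setting alone. Alternatives are given in the closing section.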

Additional observations from a re-analysis of the deposited data

Results flagged for a closer look

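The difference between genotypes in the change with E2 (KO change minus WT change, limma interaction) passed the test for the following genes. At 2 h it was 2.69 for Xaf1 (adjusted p = 0.000409), 2.46 for Rtp4 (0.00159), 2.23 for Ifit2 (0.00573), 2.20 for Ifit3b (0.0222) and 2.10 for Oasl2 (0.00908). It was 2.02 for Oas1a (adjusted p = 0.013), 1.68 for Dtx3l (0.0113), 1.38 for Ifih1 (0.00271), 1.31 for Ddx58 (0.00826) and 1.02 for Mx2 (0.0409). Without KO E2 2 h replicate 2, the array on which all 34 members were high, Ifit3b and Mx2 did not pass.

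At 24 h the difference was -2.96 for Bst2 (adjusted p = 0.00177), -1.85 for Oas2 (0.0264), -1.68 for Oas1a (0.0217) and -1.45 for Rtp4 (0.0335). It was -1.13 for Trim25 (adjusted p = 0.00772), -1.05 for Irf9 (0.0143), -0.76 for Dhx58 (0.0159) and -0.65 for Oasl1 (0.00634). For Ifne it was -2.53 (adjusted p = 3e-06). Several of these sizes rest on levels at or under the floor. Ifne and Oasl1 were there on every array of 3 of their 4 groups, Oas2 on every array of both KO groups, and Dhx58 on every KO E2 24 h array and on 2 of 3 KO vehicle arrays.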

How the results depend on the processing

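Counts of called members, out of 34, moved by over 1.5 times under these settings. With arrays centred on their medians the count was 7 (6 lower, 1 higher) for WT E2 2 h against vehicle, 1 for KO IGF1 2 h, 11 for KO IGF1 24 h and 1 for WT IGF1 24 h against 2 h. With quantile normalization it was 1 for KO E2 2 h, 11 for KO IGF1 24 h and 1 for KO against WT vehicle. With dim genes removed (18434 kept, 11708 removed, 2 members among them) it was 1 for KO E2 2 h, 1 for KO against WT vehicle, 17 for the E2 2 h interaction and 8 for KO E2 against IGF1 at 2 h. Fitting the compared groups alone, it was 0 for KO IGF1 2 h, 8 for KO against WT E2 2 h, 2 (both lower) for WT E2 against IGF1 at 2 h, 0 for KO E2 against IGF1 at 2 h, 4 for WT IGF1 24 h against 2 h, 0 for KO E2 24 h against 2 h and 2 for KO IGF1 24 h against 2 h. Leaving out the arrays that stood apart in Xist or in smooth muscle markers, replicate 1 of WT vehicle and replicate 2 of KO E2 24 h, it was 1 for KO E2 2 h, 1 for KO against WT vehicle, 4 for the E2 24 h interaction and 0 for KO E2 24 h against 2 h. The cause was not tested.

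With each array left out in turn, the counts ran from 6 to 9 for WT E2 2 h against vehicle, 9 to 14 for WT E2 24 h, 3 to 5 for WT IGF1 2 h, 0 to 9 for KO E2 2 h, 0 to 4 for KO IGF1 2 h and 5 to 7 for KO IGF1 24 h. For KO against WT they ran from 0 to 1 with vehicle, 10 to 25 at E2 2 h, 16 to 19 at E2 24 h, 0 to 1 at IGF1 2 h and 0 to 2 at IGF1 24 h. For the interactions they ran from 8 to 23 at E2 2 h and 4 to 9 at E2 24 h. For E2 against IGF1 at 2 h they ran from 0 to 1 in WT and 0 to 11 in KO. For 24 h against 2 h they ran from 19 to 23 (WT E2), 0 to 2 (WT IGF1), 0 to 16 (KO E2) and 3 to 12 (KO IGF1). The 4 others stayed at 0. Only arrays of the compared groups were left out, although all groups share an estimate of the spread. A fit with fewer arrays has fewer degrees of freedom.

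Ifnl2, in KO against WT uteri 24 h after E2, changed sign at -0.01 (arrays centred) and -0.02 (quantile). With the replicate number as a block, 10 members were called for WT E2 2 h against vehicle, all lower (12 without it), 19 for KO against WT at E2 2 h, 11 for the E2 2 h interaction, and the other counts did not move. Deviations of same-numbered arrays from their group means correlated at -0.29 to 0.43 (median 0.01, 135 pairs) and those of other arrays at -0.43 to 0.42, so the numbers do not pair the samples. Signal near background limits Oas3, Mx1, Oasl1, Ifne and, in some groups, Oas2, Dhx58 and Mx2.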

Other observations

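Over the 10 group means, and among 18203 genes, the patterns most like that of Irf7 were those of the members Irf9 (Pearson r = 0.971), Stat2 (0.919) and Zbp1 (0.911), and, outside all lists used here, Ammecr1 (0.941), Pglyrp1 (0.932), Calhm6 (0.928), Gm11787 (0.913) and Phf11b (0.912). Ifit2 (0.200) and Rsad2 (0.136) were least like it among the members. These are descriptions over 10 points that share arrays, and the KO E2 2 h mean includes its high array.

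On KO E2 2 h replicate 2 the GTPase gene Igtp was at 15.32 (10.50 and 10.33 on the others of its group) and the chemokine gene Cxcl10 at 10.11 (5.25 and 5.44), while Ifng was at 4.82 and Ifnb1 at 4.80, under the floor of that array.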
